A study of Homo sapiens with 30 samples.

Results

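Expression of 9 genes of bone morphogenetic protein (BMP) signalling and its ID proteins was followed across a dose series of androgen in LNCaP cells. The genes were ID1, ID2, ID3, SMAD6, SMAD7, NBL1, BMPR1A, BMPR1B and BMPR2. They were chosen by symbol, as the rows of the LNCaP count table that map to these names, and all 9 were found among its 37843 genes. The choice was made with earlier results of these data known. LNCaP is an androgen-sensitive prostate cancer line that was established from a lymph node metastasis. R1881 is a synthetic androgen that binds the androgen receptor. The libraries used here formed 5 groups of 3, all of LNCaP cells: vehicle, and R1881 at 0.03, 0.06, 0.1 and 10 nM. Each well had received 130000 cells in medium with 8% charcoal-dextran-treated serum, which is low in steroids, and all groups, vehicle included, were kept so for 48 hours before 24 hours of treatment. The series contrasts increasing low doses with a high dose of androgen. Within each group the libraries carry the replicate numbers 2, 3 and 4. No label tells whether they came from separate cultures, so p-values measure the spread between these libraries, which may be technical. LNCaP is 1 line, and every library is of a whole culture, so a smaller share of expressing cells and less RNA per cell cannot be told apart.

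BMPs are secreted ligands of the TGF-beta superfamily. A ligand joins a type II receptor such as BMPR2 to a type I receptor such as BMPR1A or BMPR1B, and the type I receptor then phosphorylates SMAD1, SMAD5 and SMAD9, which enter the nucleus with SMAD4. ID1, ID2 and ID3 are classical direct targets of these SMADs. ID proteins have a helix-loop-helix domain without a basic, DNA-binding region, and they bind E proteins such as TCF3 and keep them off DNA. SMAD6 and SMAD7 are inhibitory SMADs that are themselves induced by the pathway and feed back on it. NBL1, also called DAN, is a secreted BMP antagonist. In the prostate, BMP ligands are known to restrain branching of the developing ducts.

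At 10 nM the 9 genes went in both directions, and within the ID family the members parted. NBL1, BMPR1B, BMPR1A, ID2 and ID1 were higher than in vehicle, ID3, SMAD7 and SMAD6 were lower, and BMPR2 did not pass the test. BMPR1A, BMPR1B, ID3 and SMAD7 had moved by 0.1 nM in the direction they held at 10 nM. NBL1 had also risen by 0.1 nM, on few counts. ID2 did not pass the test at any dose up to 0.1 nM and was higher at 10 nM than in vehicle and than at 0.1 nM. ID1 was lowest at 0.1 nM and highest at 10 nM.

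Total counts per library ranged from 30666460 to 61199483. KLK3, which encodes prostate-specific antigen, rose from 103 ± 7.64 to 3852 ± 79.6 CPM (read counts scaled to the library total; mean ± SD, n = 3 in each group) between vehicle and 10 nM, and FKBP5, another androgen receptor target, rose from 58.0 ± 2.37 to 2451 ± 84.6 CPM, so both treatment markers followed the labels. The summed level of 8 luminal epithelial markers was 4319 to 4448 CPM in the vehicle libraries and 12904 to 13200 CPM at 10 nM. Among markers of other cells, PTPRC, PECAM1, TP63, DCN and PDGFRA had mean levels of at most 0.0537 CPM in every group, whereas the sum of 5 fibroblast markers, carried mostly by COL1A1, was 28.3 to 39.7 CPM in vehicle and 16.4 to 20.03 CPM at 10 nM. The sum of 5 basal markers, nearly all of it from DST, was 32.1 to 33.8 CPM and 22.7 to 26.0 CPM in the same groups. The basal markers KRT14 and LAMB3, both at low level, had higher means at 10 nM (0.0226 to 0.357 and 0.565 to 0.799 CPM). The sum of 7 leukocyte and endothelial markers, nearly all of it from VWF, was 16.7 to 20.2 CPM in vehicle and 5.24 to 8.04 CPM at 10 nM. That of 4 neuroendocrine markers, nearly all of it from SYP, was 1.71 to 2.11 CPM and 3.23 to 3.90 CPM. The part of these shifts in the results below was not tested. The 5 libraries numbered 3 stood apart, with 9.31% to 10.7% of counts from mitochondrial genes against 6.14% to 7.69% in the other 10. Without them the number of the 9 genes that passed the test was the same in each comparison except at 0.06 nM, where it was 3 in place of 2.

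All 9 genes had a RefSeq entry, with 17 promoter windows in all. The ID genes are shown first by sequence, because they are close relatives that ended on opposite sides of vehicle. For each, the 250 bases before the RefSeq start are given 5′ to 3′ on the gene's strand (build GRCh38.p14). Capitals mark matches, on either strand, to any of 7 short motifs: the androgen response element (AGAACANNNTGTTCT), its single arm (AGAACA, which the full element contains on both sides), a GC-rich SMAD element (GGCGCC), the palindromic SMAD binding element (GTCTAGAC), the CCAAT box (CCAAT), the TATA box (TATAAA) and an E-box (CACGTG). The ID1 window is chr20:31605039-31605288 (+), the ID2 window chr2:8681806-8682055 (+) and the ID3 window chr1:23559502-23559751 (−). Placed by the RefSeq start, the ID2 and ID3 windows lie inside the GENCODE 29 gene positions given below.
ID1: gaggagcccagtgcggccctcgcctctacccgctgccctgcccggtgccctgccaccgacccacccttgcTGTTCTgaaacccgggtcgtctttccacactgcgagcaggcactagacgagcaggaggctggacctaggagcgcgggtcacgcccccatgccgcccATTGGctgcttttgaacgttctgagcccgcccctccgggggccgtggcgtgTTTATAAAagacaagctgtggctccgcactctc
ID2: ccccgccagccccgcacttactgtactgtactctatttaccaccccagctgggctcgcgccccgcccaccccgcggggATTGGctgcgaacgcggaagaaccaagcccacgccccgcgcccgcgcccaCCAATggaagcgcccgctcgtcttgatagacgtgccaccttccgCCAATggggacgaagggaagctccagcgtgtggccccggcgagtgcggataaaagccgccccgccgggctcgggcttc
ID3: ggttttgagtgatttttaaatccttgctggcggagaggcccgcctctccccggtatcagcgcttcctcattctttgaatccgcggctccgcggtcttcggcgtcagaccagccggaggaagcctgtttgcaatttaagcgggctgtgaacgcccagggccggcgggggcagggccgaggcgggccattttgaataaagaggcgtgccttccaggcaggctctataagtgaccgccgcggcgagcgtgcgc
In the ID2 window the CCAAT box matched 3 times, starting 172, 122 and 78 bases before the start, against 1 match in the ID1 window, at 84 bases. The ID1 window also held 2 overlapping TATA box matches, at 33 and 31 bases, and 1 single arm of the androgen response element, at 180 bases. None of the 7 motifs matched in the ID3 window. Of 34943 RefSeq windows of the same length, 32% held the CCAAT box, 10.8% the TATA box, 12.4% the single arm, 16.4% the GC-rich SMAD element, 6.32% the E-box, 0.183% the palindromic SMAD element and 0.00286% the full androgen response element. A match is a description of these letters only.

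**Figure D1:**
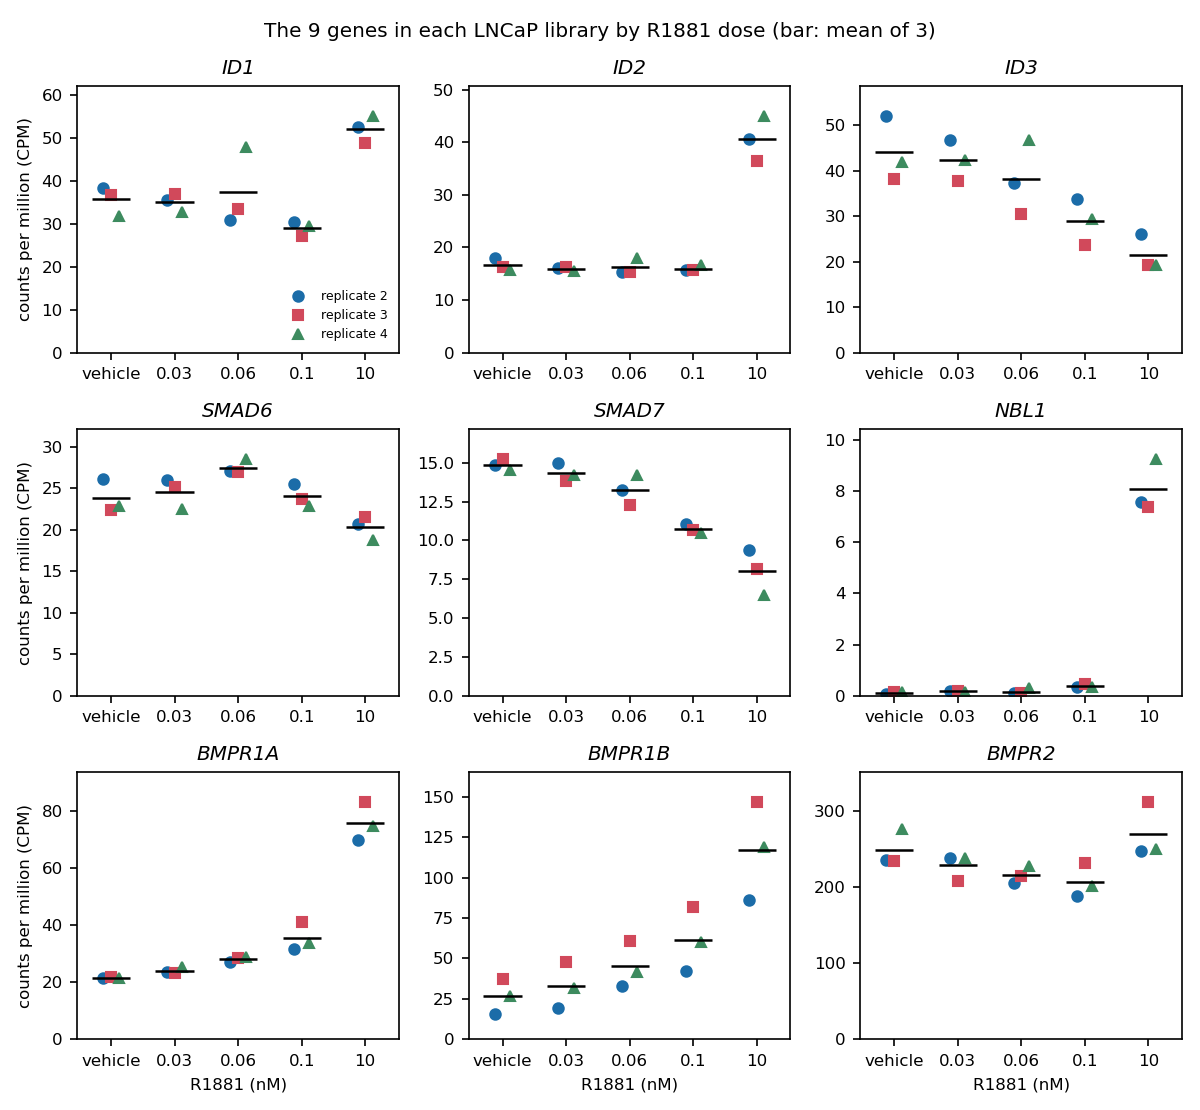
CPM of each of the 9 genes (vertical axes, from 0) in every LNCaP library, by R1881 dose in nM (horizontal axes); symbols give the replicate number and bars the mean of 3 libraries. ID2 and NBL1 stand clear of the other doses at 10 nM, BMPR1A climbs from 21.5 CPM in vehicle to 75.9 CPM, ID3 and SMAD7 descend, and replicate 3 is the highest BMPR1B library in every group.

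ID1 (chr20:31605283-31606515, + strand) measured 38.4, 36.7 and 32.0 CPM in vehicle replicates 2, 3 and 4, which is the order of libraries throughout. At 0.03 nM it measured 35.5, 37.0 and 32.8 CPM, and at 0.06 nM 30.8, 33.5 and 47.9 CPM, so that both doses overlapped vehicle. It measured 30.5, 27.3 and 29.6 CPM at 0.1 nM. At 10 nM it reached 52.6, 48.9 and 55.3 CPM. All 3 libraries at 10 nM were above all others, and the 3 at 0.1 nM were below all 3 of vehicle. The change at 10 nM was 0.55 ± 0.12 on the log2 scale (± SE, n = 3 in each group here and below), or 1.46-fold, with an adjusted p of 6.18e-04 in edgeR's quasi-likelihood test, which is the test used throughout, two-sided and with Benjamini-Hochberg adjustment over 18403 genes. At 0.1 nM the change was -0.30 ± 0.12 with an adjusted p of 0.056, which missed the threshold of 0.05. When replicate number entered the fit as a block, that value was -0.30 with an adjusted p of 0.0229, and it also passed with library totals in place of TMM factors and with the other filters. From 0.1 to 10 nM, ID1 rose by 0.84 (95% interval 0.59 to 1.09, adjusted p 1.69e-05). At 0.06 nM, where replicate 4 was far above the others, the change was 0.07 (adjusted p 0.722), and without that library -0.15 (adjusted p 0.222).

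ID2 (chr2:8678845-8684453, + strand) measured 17.9, 16.4 and 15.6 CPM in vehicle. It measured 16.2, 16.3 and 15.4 CPM at 0.03 nM and 15.3, 15.3 and 18.1 CPM at 0.06 nM. At 0.1 nM it measured 15.7, 15.7 and 16.6 CPM, and at 10 nM 40.6, 36.4 and 45.1 CPM. The vehicle and low-dose libraries lay on top of each other, and the lowest library at 10 nM was well above the highest of the other 12, which was 18.1 CPM. The changes at 0.03, 0.06 and 0.1 nM were between -0.06 and -0.04, and their 95% intervals lay within -0.24 and 0.14. At 10 nM the change was 1.29 ± 0.08, or 2.44-fold, with an adjusted p of 2.71e-10. Against 0.1 nM it was 1.35 ± 0.08 (adjusted p 7.69e-10). An antisense gene, ID2-AS1, shares 38 exon bases (1.72%) with ID2 on the opposite strand. It went the other way, from 5.77 to 3.67 CPM, a change of -0.65 (adjusted p 1.64e-04). The strand setting of the counting is not given in the sources used here.

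ID3 (chr1:23557918-23559794, − strand) measured 52.2, 38.3 and 42.0 CPM in vehicle. It measured 46.8, 37.8 and 42.4 CPM at 0.03 nM and 37.3, 30.4 and 46.8 CPM at 0.06 nM. It measured 33.8, 23.7 and 29.5 CPM at 0.1 nM and 26.0, 19.4 and 19.4 CPM at 10 nM. The libraries of the 2 highest doses were below all 3 of vehicle, and replicate 3 was the lowest ID3 library in all 5 groups, level with replicate 4 at 10 nM. ID3 fell by 0.61 ± 0.16 at 0.1 nM (adjusted p 0.0043) and by 1.04 ± 0.16 at 10 nM (adjusted p 2.12e-05), which is 2.05-fold lower than vehicle. Between 0.1 and 10 nM the change was -0.43 (adjusted p 0.0433), and the libraries of these doses overlapped. That last call was lost in DESeq2 (adjusted p 0.0849) and without any 1 of 7 libraries: vehicle 4, 0.03 nM 4, 0.06 nM 2, 0.1 nM 2 or 4, and 10 nM 3 or 4.

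Because 2 of the ID genes rose and 1 fell, their proportions within a library moved. In units of CPM per kilobase of exon, ID1 made up 45.6% to 50.9% of the summed level of the 3 genes in vehicle and 56.5% to 59.2% at 10 nM. ID2 made up 11.9% to 12.7% and then 24.4% to 26.9%. ID3 made up 36.4% to 42.5% and then 14.2% to 19.2%. The groups did not overlap for any of the 3 shares. The summed level itself was 61.1 ± 6.35 CPM per kilobase in vehicle (mean ± SD, n = 3), 47.0 ± 4.20 at 0.1 nM and 72.9 ± 5.11 at 10 nM.

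**Figure D2:**
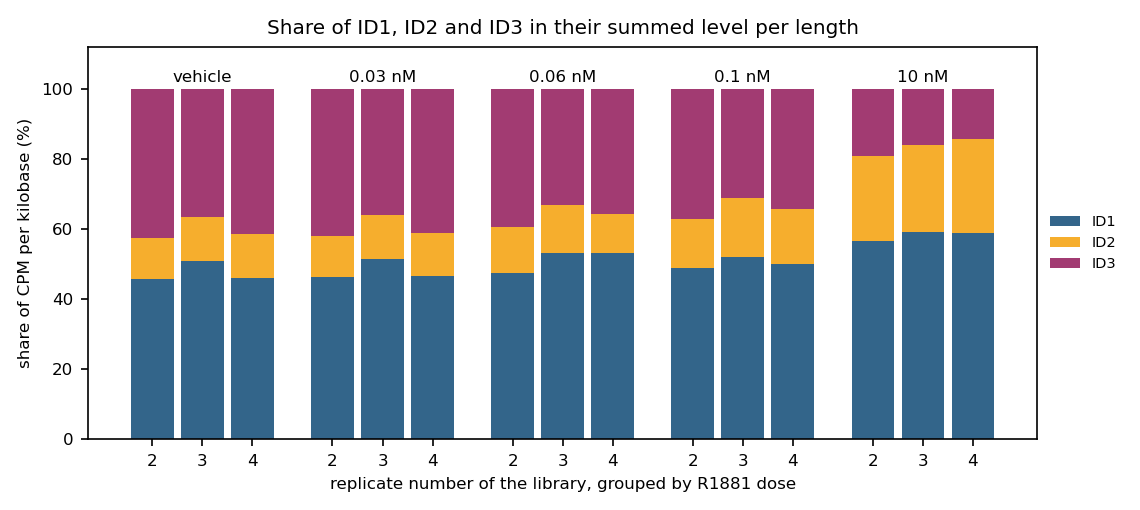
Share of ID1, ID2 and ID3 (vertical axis, percent) in their summed CPM per kilobase of exon, 1 bar per library, with the replicate number on the horizontal axis and the libraries grouped by R1881 dose. The ID3 share is 31.1% or more in each of the 12 libraries of vehicle and the low doses and 19.2% or less in the 3 at 10 nM.

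Ratios of counts within a library do not depend on the scaling between libraries. ID1/ID3 was 0.737 to 0.959 in vehicle and 2.02 to 2.85 at 10 nM. ID2/ID3 was 0.344 to 0.427 in vehicle and 1.56 to 2.32 at 10 nM. Both ratios were apart between the groups, by 3.004-fold and 5.002-fold on the mean log scale. In an exact permutation test of each ratio, two-sided, p was 0.1, which is the smallest value that 3 against 3 libraries allow, and 0.14 after adjustment over the 14 ratio comparisons computed.

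**Figure D3:**
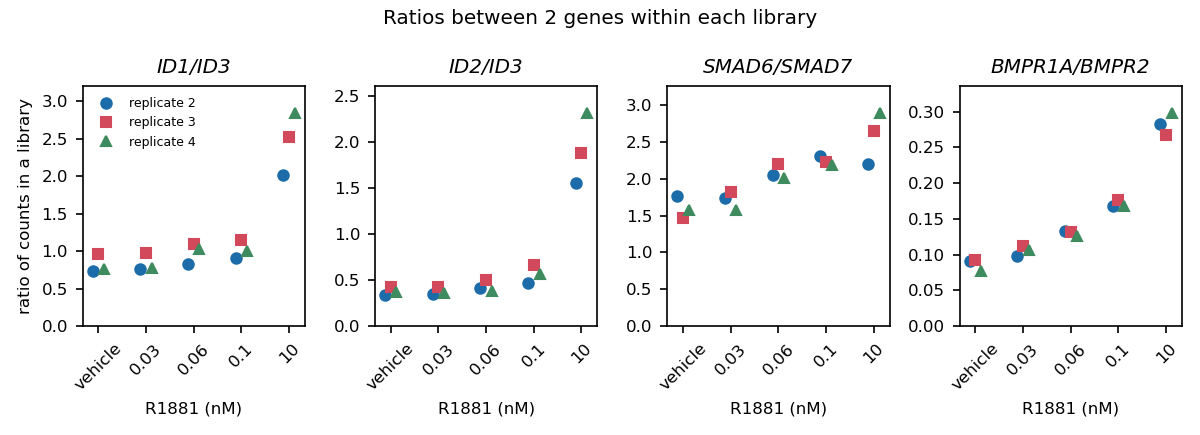
Ratio of the counts of 2 genes within each library (vertical axes, from 0) by R1881 dose in nM (horizontal axes), with symbols for the replicate number. ID1/ID3 and ID2/ID3 step up at 10 nM, to 2.02 to 2.85 and 1.56 to 2.32, while BMPR1A/BMPR2 climbs at each dose.

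The inhibitory SMADs differed in size of change. SMAD6 is shown by sequence because its window, chr15:66701986-66702235 (+), was the only one of the 17 windows of the 9 genes that held the palindromic SMAD element, starting 12 bases before the start. A single arm of the androgen response element began at 84 bases. Capitals mark the same motifs as above.
SMAD6: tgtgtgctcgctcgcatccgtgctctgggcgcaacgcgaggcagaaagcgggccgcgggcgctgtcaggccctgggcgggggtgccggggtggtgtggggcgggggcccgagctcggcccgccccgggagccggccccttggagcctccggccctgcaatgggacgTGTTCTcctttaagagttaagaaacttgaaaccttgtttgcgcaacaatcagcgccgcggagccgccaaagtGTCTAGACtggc
SMAD6 (chr15:66702228-66782848, + strand), which acts mainly on BMP receptors and SMAD1, measured 26.2, 22.3 and 22.8 CPM in vehicle and 26.0, 25.2 and 22.5 CPM at 0.03 nM. It measured 27.0, 26.9 and 28.6 CPM at 0.06 nM. It measured 25.5, 23.7 and 22.8 CPM at 0.1 nM and 20.7, 21.6 and 18.8 CPM at 10 nM. The lowest library at 0.06 nM (26.9 CPM) was just above the highest of vehicle (26.2 CPM). The highest at 10 nM (21.6 CPM) was just below the lowest of vehicle (22.3 CPM). The change was 0.21 ± 0.08 at 0.06 nM (adjusted p 0.0438) and -0.22 ± 0.08 at 10 nM (adjusted p 0.0187). From 0.1 to 10 nM it was -0.24 ± 0.08 (adjusted p 0.0189), a call lost without 0.1 nM 2 or 10 nM 4. The call at 0.06 nM was lost without the libraries numbered 3 (0.19, adjusted p 0.119) and without any 1 of vehicle 3 or 4, 0.06 nM 2, 3 or 4, or 10 nM 2. It was also lost with library totals (0.18, adjusted p 0.101), with no filter on low counts (0.21, adjusted p 0.069) and with the stricter filter (0.20, adjusted p 0.0506). The call at 10 nM was lost without vehicle 2 or 10 nM 4 (adjusted p 0.119 and 0.0848).

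SMAD7 (chr18:48919853-48952052, − strand), which acts on both the BMP and the TGF-beta branch, measured 14.8, 15.2 and 14.6 CPM in vehicle. It measured 14.997, 13.8 and 14.2 CPM at 0.03 nM and 13.2, 12.3 and 14.2 CPM at 0.06 nM. At 0.1 nM it measured 11.04, 10.7 and 10.4 CPM. At 10 nM it measured 9.41, 8.16 and 6.48 CPM. Vehicle, 0.1 nM and 10 nM were in falling order with no overlap. SMAD7 fell by 0.47 ± 0.10 at 0.1 nM (adjusted p 8.18e-04) and by 0.89 ± 0.10 at 10 nM (adjusted p 5.13e-07), or 1.86-fold, and by 0.42 between these doses (adjusted p 0.00294). The SMAD6/SMAD7 ratio was 1.47 to 1.76 in vehicle and 2.20 to 2.89 at 10 nM (exact permutation p 0.1, adjusted 0.14).

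NBL1 (chr1:19596979-19658456, + strand) had the largest change of the 9 genes at 10 nM and, in vehicle and up to 0.1 nM, the lowest level. Its counts were 3, 6 and 6 in vehicle, 8, 7 and 7 at 0.03 nM and 5, 3 and 11 at 0.06 nM. They were 14, 21 and 12 at 0.1 nM, and 287, 398 and 367 at 10 nM. In CPM these were 0.070, 0.133 and 0.138 in vehicle and 7.56, 7.36 and 9.26 at 10 nM. The libraries at 10 nM were far above all others, and those at 0.1 nM were above vehicle on few counts. The change was 1.76 ± 0.37 at 0.1 nM (adjusted p 9.38e-04) and 6.10 ± 0.25 at 10 nM (95% interval 5.58 to 6.62, adjusted p 5.24e-13), and 4.34 ± 0.21 from 0.1 to 10 nM (adjusted p 3.48e-11). On the same strand NBL1 shares 131 exon bases (3.64%) with MICOS10, a mitochondrial inner membrane gene, and 552 (15.4%) with the readthrough gene MICOS10-NBL1, which had 1 count in all libraries together. MICOS10 rose from 4.69 to 9.51 CPM, a change of 1.02 (adjusted p 4.94e-07), so how reads in the shared bases were divided touches both genes.

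Of the receptors, BMPR1A passed the test from 0.06 nM on. Its window, chr10:86755513-86755762 (+), is shown because its level climbed step by step with dose. This window, placed by the RefSeq start, ends before the GENCODE 29 start of the gene given below. It held 1 TATA box match, at 28 bases, and none of the androgen or SMAD motifs.
BMPR1A: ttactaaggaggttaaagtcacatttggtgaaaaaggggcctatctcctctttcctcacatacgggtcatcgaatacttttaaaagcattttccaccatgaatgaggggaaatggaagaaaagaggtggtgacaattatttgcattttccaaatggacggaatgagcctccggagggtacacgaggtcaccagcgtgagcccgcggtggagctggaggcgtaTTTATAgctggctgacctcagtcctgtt
BMPR1A (chr10:86756601-86932838, + strand), a type I receptor, measured 21.5, 21.6 and 21.3 CPM in vehicle and 23.5, 23.3 and 25.3 CPM at 0.03 nM. It measured 27.2, 28.4 and 28.6 CPM at 0.06 nM and 31.7, 41.1 and 33.6 CPM at 0.1 nM. At 10 nM it measured 69.8, 83.2 and 74.6 CPM. Each dose lay above the next lower one with no overlap. Against vehicle the change was 0.16 ± 0.08 (adjusted p 0.277), 0.39 ± 0.08 (adjusted p 0.00182), 0.73 ± 0.08 (adjusted p 1.66e-06) and 1.82 ± 0.08 (adjusted p 2.43e-12, 3.54-fold) at the 4 doses in rising order. From 0.1 to 10 nM it was 1.10 ± 0.08 (adjusted p 6.85e-09). Of the change at 10 nM, 39.8% was present at 0.1 nM on the log2 scale, against 83.1% for KLK3 and 56.5% for FKBP5.

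BMPR1B (chr4:94757968-95158448, + strand), the other type I receptor of the set, measured 15.8, 37.1 and 26.7 CPM in vehicle. It measured 19.1, 47.6 and 31.8 CPM at 0.03 nM and 33.04, 60.5 and 41.9 CPM at 0.06 nM. It measured 41.9, 81.9 and 59.9 CPM at 0.1 nM and 86.1, 146.8 and 119.1 CPM at 10 nM. Replicate 3 was highest and replicate 2 lowest in all 5 groups, so the libraries of 1 dose spread more than for any of the other 8 genes except NBL1 at 0.06 nM, with a coefficient of variation of 40.2% in vehicle against 0.757% for BMPR1A. The change was 1.21 ± 0.33 at 0.1 nM (adjusted p 0.00625) and 2.15 ± 0.33 at 10 nM (adjusted p 2.18e-05, 4.43-fold). From 0.1 to 10 nM it was 0.94 ± 0.31 (adjusted p 0.0239), a call lost in DESeq2 (adjusted p 0.0568) and without 0.1 nM 2 or 4 or 10 nM 3 or 4. Taken by replicate number, the difference between 10 nM and vehicle was 2.45, 1.99 and 2.16 for numbers 2, 3 and 4. At 0.03 nM it was 0.30 ± 0.33 (adjusted p 0.675), and in a fit with a replicate block it was 0.30 with an adjusted p of 0.00855. At 0.06 nM it was 0.76 ± 0.33 (adjusted p 0.0924), and without the libraries numbered 3 it was 0.83 with an adjusted p of 0.0126. The replicate block gave 0.79 at that dose, with an adjusted p of 1.65e-08. BMPR1B-DT, a transcript divergent from the same promoter region, also had its highest library in replicate 3 in every group, 1.78 CPM beside 0.656 and 0.923 CPM in vehicle.

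BMPR2 (chr2:202376936-202567751, + strand), the type II receptor, measured 235, 233 and 275 CPM in vehicle. It measured 238, 207 and 238 CPM at 0.03 nM and 205, 215 and 227 CPM at 0.06 nM. At 0.1 nM it measured 188, 232 and 200 CPM, and at 10 nM 247, 311 and 250 CPM. The highest library at 0.1 nM, with 232 CPM, lay just below the lowest of vehicle, and those at 10 nM overlapped vehicle. BMPR2 fell by 0.26 ± 0.09 at 0.1 nM (adjusted p 0.0346), a call lost without vehicle 4 or 0.1 nM 2 or 4, and at 10 nM the difference was 0.12 (95% interval -0.078 to 0.32, adjusted p 0.289). From 0.1 to 10 nM it rose by 0.38 ± 0.09 (adjusted p 0.00345), a call lost with library totals in place of TMM factors (0.23, adjusted p 0.0641). Relative to BMPR2, BMPR1A rose from a count ratio of 0.0773 to 0.0926 in vehicle to one of 0.267 to 0.299 at 10 nM, and BMPR1B from 0.0672 to 0.159 to one of 0.348 to 0.477 (exact permutation p 0.1 for each, adjusted 0.14).

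**Figure D4:**
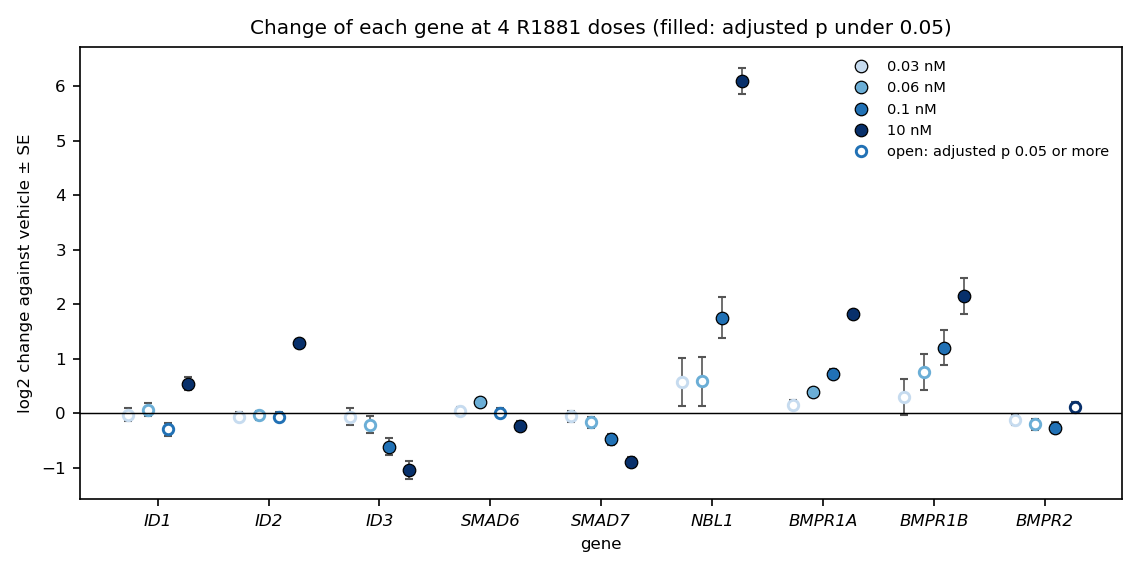
Log2 change against vehicle (vertical axis, ± SE from edgeR) of the 9 genes (horizontal axis) at 4 R1881 doses, with filled points where the adjusted p was under 0.05. NBL1 reaches 6.10 at 10 nM, ID3 and SMAD7 lie below 0 at every dose and are filled from 0.1 nM on, and no point at 0.03 nM is filled.

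Per kilobase of exon, the order of levels in vehicle was ID1 (28.97 ± 2.72 CPM per kilobase, SD), ID3 (24.6 ± 3.99), BMPR2 (20.8 ± 2.02), ID2 (7.55 ± 0.532), BMPR1B (4.20 ± 1.69), SMAD7 (2.96 ± 0.0690), SMAD6 (2.78 ± 0.244), BMPR1A (1.88 ± 0.0142) and NBL1 (0.0317 ± 0.0105). Neighbours whose libraries overlapped were ID1 and ID3, ID3 and BMPR2, BMPR1B and SMAD7, and SMAD7 and SMAD6. At 10 nM the order was ID1 (42.4 ± 2.59), BMPR2 (22.6 ± 3.04), BMPR1B (18.6 ± 4.82), ID2 (18.5 ± 1.96), ID3 (12.01 ± 2.13), BMPR1A (6.65 ± 0.593), SMAD6 (2.38 ± 0.167), NBL1 (2.24 ± 0.289) and SMAD7 (1.59 ± 0.292). There BMPR2 overlapped BMPR1B, BMPR1B overlapped ID2, and SMAD6 overlapped NBL1. Exon lengths are those of GENCODE 29, which need not be the transcripts these cells use.

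Counted over the 9 genes, all of which passed the filter on low counts, 0 passed the test at 0.03 nM, where 8.63% of all genes tested did. By unadjusted p under 0.05 the count there was also 0, and DESeq2 called 0. With the replicate block it was 1 of 9, BMPR1B, and the count over all genes was 3195 in place of 1588. At 0.06 nM 2 of 9 passed, both higher, against 31.2% of all genes. There the block gave 4 of 9, adding BMPR1B as higher and BMPR2 as lower (-0.20, adjusted p 0.0483). The count over all genes was then 7290 in place of 5747. At 0.1 nM 6 passed, 3 higher and 3 lower, against 42.1%. At 10 nM 8 passed, 5 higher and 3 lower, against 57.6%. Between 0.1 and 10 nM all 9 passed, 6 higher and 3 lower at 10 nM, against 40.1%, and DESeq2 called 7 of 9. In a test of any difference among the 5 groups all 9 passed, against 60.4%. Because the 9 genes were chosen with earlier results of these data known, their counts beside all genes are a description only. Over all genes, the share that passed was 5.47% higher and 3.16% lower at 0.03 nM, 16.9% and 14.3% at 0.06 nM, 21.5% and 20.6% at 0.1 nM, 29.3% and 28.3% at 10 nM, and 20.6% and 19.5% between 0.1 and 10 nM. The libraries of the groups compared did not overlap for 1 of the 9 at 0.03 nM (24.2% of all genes), 4 at 0.06 nM (43.0%), 7 at 0.1 nM (50.5%), 8 at 10 nM (62.6%) and 8 between 0.1 and 10 nM (49.9%). The 4 comparisons with vehicle share the vehicle libraries. With library totals in place of TMM factors the median of all genes at 10 nM moved from -0.01 to -0.22, and 27.8% in place of 50.9% of called genes were higher. Under that scaling the 8 genes called at 10 nM were called in the same direction, and only BMPR2, not called, changed sign (to -0.091).

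The rest of the pathway was read from 8 lists of 113 genes, of which 105 had a row and 75 passed the filter. These lists too were chosen with earlier results of these data known. At 10 nM 50 of the 75 passed the test, 25 higher and 25 lower, beside 57.6% of all genes tested, with a median change of 0.05 against -0.01 for all genes. That share over all genes also stands behind the counts given for each list at 10 nM below. At 0.1 nM 45 of the 75 passed, 16 higher and 29 lower, beside 42.1% of all genes. At 0.03 nM 11 passed, 6 higher and 5 lower, beside 8.63%, and at 0.06 nM 37 passed, 12 higher and 25 lower, beside 31.2%. From 0.1 to 10 nM 48 passed, 28 higher and 20 lower, beside 40.1%.

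Few ligands on the list of BMPs and GDFs were measured: 5 of 16 passed the filter (median -0.86 at 10 nM). At 10 nM 1 of these rose, GDF11, and 3 fell, all of them BMPs. None of the tested genes named BMP was called higher at 10 nM. BMP8A fell from 3.71 to 1.996 CPM (-0.89 ± 0.13, adjusted p 1.36e-05) and its near-identical neighbour BMP8B from 3.94 to 1.41 CPM (-1.49 ± 0.14, adjusted p 6.04e-08), and reads can be hard to divide between these 2 copies. GDF11 was the ligand with the highest level among those named, at 60.5 CPM in vehicle and 70.9 CPM at 10 nM (0.23 ± 0.07, adjusted p 0.00687). BMP6 was higher at 0.1 nM (1.12 ± 0.23, adjusted p 6.95e-04) and at 10 nM its change was 0.52 with an adjusted p of 0.0666. Of 12 further receptors and co-receptors, 9 passed the filter and at 10 nM 4 rose and 2 fell (median 0.38). RGMB, a BMP co-receptor, rose from 57.1 to 113 CPM (0.98 ± 0.04, adjusted p 1.31e-12). ACVR2A, a type II receptor for activins and BMPs, rose from 15.4 to 24.3 CPM (0.66 ± 0.07, adjusted p 1.28e-07), and NEO1, a receptor for RGM proteins, rose by 0.41. BAMBI, a pseudoreceptor that lacks the kinase domain and blocks signalling, fell from 27.9 to 11.4 CPM (-1.29 ± 0.16, adjusted p 1.98e-06).

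The 4 SMAD transducers split. SMAD1 fell from 33.3 to 18.6 CPM (-0.83 ± 0.08, adjusted p 1.23e-07), SMAD9 rose from 23.8 to 43.4 CPM (0.87 ± 0.09, adjusted p 1.67e-07), SMAD4 rose by 0.36 (adjusted p 4.42e-04), and SMAD5 changed by 0.01 (adjusted p 0.889). The fall of SMAD1 and the rise of SMAD9 were present at 0.1 nM, at -0.36 and 0.68. SMAD9 also passed the test at 0.03 nM (0.47, adjusted p 0.00267), where SMAD1 did not (-0.07, adjusted p 0.721). Between 0.1 and 10 nM the change of SMAD9 did not pass (0.18, adjusted p 0.108).

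Among 20 secreted antagonists and modulators besides NBL1, 10 passed the filter, and at 10 nM 6 fell and the other 4 did not pass the test (median -0.63). TLL1, a protease of the BMP1 family that cleaves the antagonist chordin, fell from 30.4 to 3.60 CPM (-3.08 ± 0.29, adjusted p 5.77e-08). BMP1, its relative and not a BMP ligand, fell from 20.7 to 10.4 CPM (-0.99 ± 0.08). KCP, a chordin-like secreted modulator, fell from 4.59 to 2.10 CPM (-1.12 ± 0.13). CRIM1, which binds BMPs at the cell surface, fell by 0.62 at 0.1 nM (adjusted p 5.58e-05) and at 10 nM differed from vehicle by 0.03 (adjusted p 0.783). At 0.1 nM 6 of the 10 passed the test as lower and 1 as higher, beside 42.1% of all genes in either direction. TLL1 and BMP1 act on chordin rather than bind BMPs.

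All 15 intracellular regulators passed the filter, and at 10 nM 9 rose and 3 fell (median 0.17). The ubiquitin ligase SMURF1, which targets SMADs and receptors, rose from 24.9 to 48.2 CPM (0.95 ± 0.06, adjusted p 1.23e-10). The ubiquitin ligase NEDD4L rose from 251 to 532 CPM (1.08 ± 0.11, adjusted p 9.76e-08). The phosphatase PPM1A rose by 0.76 and TOB1, which binds SMADs, by 0.45.

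Of 15 further targets of BMP signalling, 11 passed the filter, and at 10 nM 4 rose and 2 fell (median 0.24). The homeobox gene DLX2 rose from 1.17 to 2.55 CPM (1.13 ± 0.19, adjusted p 5.32e-05). The transcription factor GATA2 fell from 341 to 190 CPM (-0.84 ± 0.06, adjusted p 5.83e-10). RUNX2, a regulator of bone formation, was at 1.74 CPM in vehicle, 4.43 CPM at 0.1 nM (1.35 ± 0.23, adjusted p 1.16e-04) and 2.14 CPM at 10 nM (adjusted p 0.287). TBX3 fell by 0.37 at 0.1 nM (adjusted p 4.92e-06), and at 10 nM its change was -0.09 (adjusted p 0.103).

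Of 11 basic helix-loop-helix factors, 6 passed the filter, and at 10 nM 3 rose and 2 fell (median 0.71). The list held 3 tested E proteins, the class that ID proteins bind. TCF3 was lower at 10 nM, 87.9 against 113 CPM (-0.36 ± 0.07, adjusted p 2.41e-04), and so was TCF4, 3.10 against 4.19 CPM (-0.43 ± 0.12, adjusted p 0.00419). TCF12 measured 58.7 CPM at 10 nM and 58.1 CPM in vehicle (0.01 ± 0.06, adjusted p 0.847). TWIST1 rose from 5.21 to 19.2 CPM (1.88 ± 0.12, adjusted p 4.29e-10) and was already at 16.8 CPM at 0.1 nM. HES6 rose from 29.6 to 117 CPM (1.97 ± 0.17, adjusted p 1.35e-08) and HES1, a Notch target, from 2.11 to 5.60 CPM.

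Of 20 genes of the TGF-beta and activin branch, 15 passed the filter, and at 10 nM 2 rose and 6 fell (median -0.39). SMAD3, a transducer of that branch, fell from 25.1 to 6.999 CPM (-1.84 ± 0.06, adjusted p 8.03e-14). INHBB, an activin subunit, fell from 15.2 to 4.57 CPM (-1.72 ± 0.12, adjusted p 6.33e-10), and TGIF2, a repressor, fell by 0.97. PMEPA1, an inhibitor of TGF-beta signalling and a known androgen target, rose from 46.5 to 509 CPM (3.45 ± 0.11, adjusted p 3.31e-14).

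**Figure D5:**
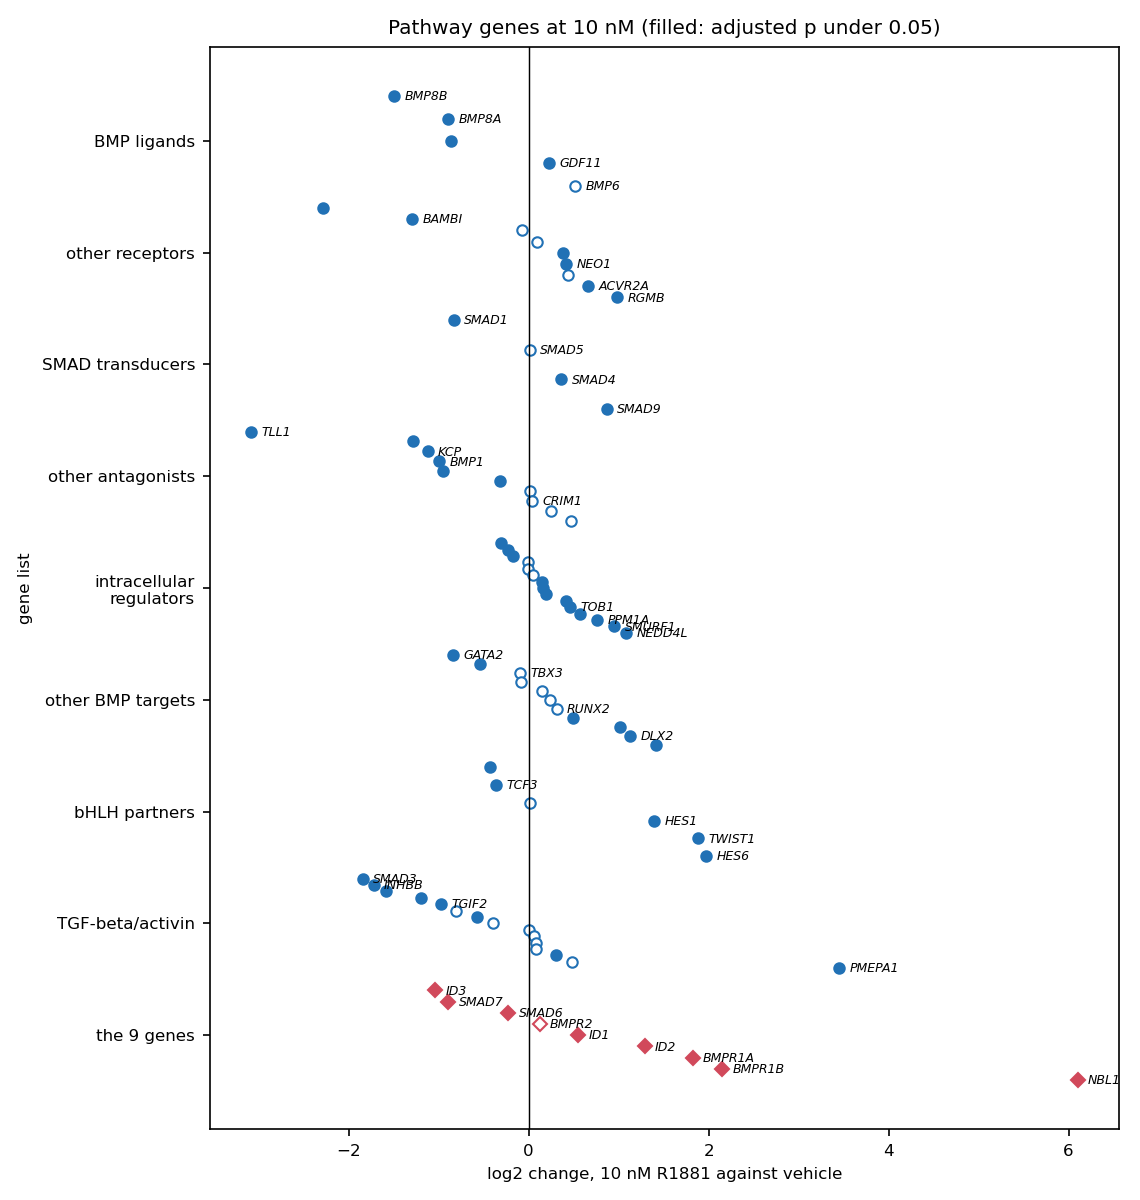
Log2 change at 10 nM R1881 against vehicle (horizontal axis) for each tested gene of 8 pathway lists (circles) and for the 9 genes (diamonds), by list (vertical axis). Filled points had an adjusted p under 0.05, and names mark the genes given in the text, except TCF4 and TCF12. Every list but that of antagonists holds filled points on both sides of 0.

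The genes most like each of the 9 over the 15 libraries, by Pearson r of log2 CPM among 11218 candidates, are given as a description. The 15 points share 5 dose levels, so a common dose pattern carries most of each r. For BMPR1A they were OLA1 (r = 0.996) and EDEM3 (r = 0.995), and for NBL1 USP8 (r = 0.990) and ACAD8 (r = 0.988). For ID2 they were USP4 (r = 0.987) and ADAMTS1 (r = 0.987), for BMPR2 ARHGAP5 (r = 0.972) and MYO9A (r = 0.955), and for BMPR1B RAB12 (r = 0.970) and NEDD4L (r = 0.968). For SMAD7 they were CCDC88B (r = 0.966) and ACSF2 (r = 0.965), for ID3 ADD3 (r = 0.956) and PITX1 (r = 0.954), and for SMAD6 MOV10 (r = 0.922) and NFRKB (r = 0.911). ID1 had the lowest values, with CAPNS1 (r = 0.875) and VPS37C (r = 0.873). Between members, r was 0.86 for ID1 with ID2, -0.32 for ID1 with ID3 and -0.69 for ID2 with ID3, while ID3 with SMAD7 gave 0.93 and BMPR1A with NBL1 0.97, all over the same 15 libraries.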

How the data were processed

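RNA-seq of 15 LNCaP libraries was analysed from the count table that the authors deposited, with whole-number read counts for 37843 genes. Per the labels' protocols, RNA was isolated with the Aurum kit and libraries were made with the KAPA Stranded mRNA-Seq kit. The submitters' processing notes name Trimmomatic 0.39, STAR 2.7.8a, DESeq2 1.36.0 and GRCh38. The counter, its strand setting and the annotation release are not given in the sources used here. Of the 30 samples, those of the other cell line were not analysed here, because no label names any of their 15 columns.

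Genes with low counts were removed by edgeR's filterByExpr, leaving 18403. Counts were fitted with edgeR 4.0.16 (R 4.3.3), TMM scaling and quasi-likelihood F-tests over all 15 libraries with 1 mean per group, and p-values were adjusted by Benjamini-Hochberg over all genes tested, with a threshold of 0.05. CPM are relative to the TMM-scaled library total. Intervals are 95% from the fit. Library totals ran from 30666460 to 61199483 counts, which sets the counting precision. A count of 6, as for NBL1 in vehicle, has a large counting error.

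The members and gene lists were chosen with earlier results of these data known. Genes named besides the 9 were, per list, up to 4 with the smallest p of the any-dose test, the 2 most correlated with each of the 9 (at least 5 CPM in a group, prior count 2), KLK3 and FKBP5. Genes overlapping the 9, the BMPR1B-DT transcript and marker genes were added for reference, and TCF4 and TCF12 after their values were seen. Gene positions and exon lengths are from GENCODE 29 (GRCh38), whose versions match 18364 of the file's gene IDs, so the authors' release was another. Promoters are from RefSeq. Symbols were found for 28456 genes.

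Alternatives were RLE size factors, library totals, no filter, a stricter filter (mean count of 20 or more, with 1 CPM in at least 3 libraries), DESeq2 1.42.0, each library left out, the libraries numbered 3 left out, only the libraries compared, and a replicate block. Same-numbered libraries deviated together from their group means in every pair (r over 0.1) for 0.03 and 0.1 nM against vehicle (r from 0.151 to 0.296). Number 4 fell short at 0.06 nM (r 0.099) and in both comparisons of 10 nM (r 0.066 and 0.061). Blocked values are printed in the results for 0.03, 0.06 and 0.1 nM, where the block changed a call. The labels do not say what the numbers share.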

Additional observations from a re-analysis of the deposited data

How the results depend on the processing

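Each of 45 changes (9 genes in 5 comparisons) was recomputed under 23 alternatives, giving 1033 values. Of these, 961 kept direction and side of the threshold, 31 lost a call, 20 gained one and 21 changed sign. In none of those 21 was the value called in either setting. NBL1 was filtered out of 0.03 and 0.06 nM against vehicle when only the libraries compared were used. Without a filter the fit put an infinite weight on the shared spread (prior degrees of freedom 7.32 in the main fit), so its p-values rest on that spread alone.

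The replicate block moved the genes called at 0.03 nM from 1588 to 3195 and members called from 0 to 1, and at 0.06 nM members from 2 to 4. There it called BMPR1B (0.79, adjusted p 1.65e-08) and BMPR2 (-0.20, adjusted p 0.0483). At the other doses it changed only the call of ID1 at 0.1 nM among the 9. Each library correlated best with its own number in all 5 comparisons. Fits to only the libraries compared called 1010 genes at 0.03 nM. Leaving out 1 library gave 979 to 1650 genes at 0.03 nM, lowest without vehicle 4, and 1 to 2 members at 0.06 nM. No filter called 1 member at 0.03 nM and 4 at 0.06 nM. At 0.06 nM library totals and the stricter filter each called 1 and only the libraries compared called 4. The causes were not tested.

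Sign changes came with 1 library left out for ID1 (-0.10 to 0.027), ID3 (-0.16 to 0.075), SMAD6 (-0.0041 to 0.12) and BMPR1B (-0.054 to 0.62) at 0.03 nM. They came likewise for ID1 (-0.15 to 0.20), ID2 (-0.12 to 0.020) and NBL1 (-0.026 to 0.81) at 0.06 nM, SMAD6 at 0.1 nM (-0.029 to 0.089) and BMPR2 at 10 nM (-0.0069 to 0.20). SMAD6 at 0.03 nM (-0.018) and BMPR2 at 10 nM (-0.041) changed sign without the libraries numbered 3, and SMAD6 at 0.1 nM (-0.042) and BMPR2 at 10 nM (-0.091) with library totals. At 10 nM against vehicle leaving out 1 library gave 7 to 8 members, and between 0.1 and 10 nM 6 to 9.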
